A study of Mus musculus with 22 samples.

Results

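The last step of an H3K4me3 time course, from 12 h to 24 h of induced erythroid differentiation, was examined in 4 of the 22 ChIP-seq peak lists of the series. The 4 lists were those whose sample titles name H3K4me3 and either 12 h or 24 h, with 2 replicates at each time. All lists came from G1ER (G1E-ER4) cells, a mouse line of erythroid progenitors whose own Gata1 gene is disrupted and which makes an estrogen-activated form of GATA1 instead (GATA1-ER). Every group used here was cultured with SCF and erythropoietin, and the 12 h and 24 h cells had received β-estradiol, which activates the fusion protein, for those times. The line is a single clone that expresses the fusion protein constitutively, so it models one timed pulse of GATA1 activity and not the gradual rise of a primary erythroblast. The other 6 H3K4me3 lists (0, 2, and 6 h), the 10 H3K27ac lists, and 2 CTCF lists were used for comparison.

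H3K4me3 is laid down by the SET1 and MLL (KMT2) complexes, which are drawn to CpG-rich promoters and to transcribing polymerase, and it is removed by KDM5 demethylases. It marks the starts of active and poised genes, and weaker deposits occur at strong enhancers. In erythroid cells GATA1 and its cofactors activate the globin, heme, and membrane genes and shut down progenitor and mast cell genes, many of which GATA2 had maintained.

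Merging the peaks of the 4 lists gave 14424 regions, of which 11843 held a peak in all 4 lists. A region was called gained when both 24 h lists and neither 12 h list had a peak in it, and lost in the reverse case. By this rule 115 regions were gained (0.797% of all) and 169 were lost (1.17%). They were weak and mostly away from gene starts: 9.57% of the gained and 10.1% of the lost regions held a protein-coding transcription start site (TSS), compared with 74.6% of the regions in all 4 lists. The median longest peak was 721 bp in gained, 787 bp in lost, and 2508 bp in constant regions. The other 2297 regions, whose peaks were missing from some lists in another pattern, had similar values (10.4% with a coding TSS, median 684 bp).

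Sequences are shown for regions at both ends of this range, so that the CpG-rich promoters can be set beside the CpG-poor regions away from gene starts. The promoter sequences are 300-base windows around the start from RefSeq (GRCm38.p6), most of each window lying upstream, and the others are the central 300 bases of the region in GRCm38 (mm10). Capitals mark the GATA motif, searched on both strands in its forms AGATAA or AGATAG and TGATAA or TGATAG, which cannot match at the same position of a strand.
Steap3 promoter (gained), chr1:120271031-120271330, minus strand: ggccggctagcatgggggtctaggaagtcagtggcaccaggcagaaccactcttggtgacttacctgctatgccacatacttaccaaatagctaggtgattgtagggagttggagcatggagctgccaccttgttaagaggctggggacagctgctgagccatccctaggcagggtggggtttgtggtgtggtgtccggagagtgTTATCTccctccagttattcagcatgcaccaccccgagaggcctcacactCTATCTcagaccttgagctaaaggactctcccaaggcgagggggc
Slc38a5 promoter (gained), chrX:8271131-8271430, plus strand: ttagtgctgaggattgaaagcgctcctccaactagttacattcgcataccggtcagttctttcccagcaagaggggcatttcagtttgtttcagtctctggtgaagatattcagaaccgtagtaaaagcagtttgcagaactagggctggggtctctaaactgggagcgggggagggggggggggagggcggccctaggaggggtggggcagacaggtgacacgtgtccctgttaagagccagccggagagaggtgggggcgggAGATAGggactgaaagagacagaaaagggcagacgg
Ache promoter (lost), chr5:137288004-137288303, plus strand: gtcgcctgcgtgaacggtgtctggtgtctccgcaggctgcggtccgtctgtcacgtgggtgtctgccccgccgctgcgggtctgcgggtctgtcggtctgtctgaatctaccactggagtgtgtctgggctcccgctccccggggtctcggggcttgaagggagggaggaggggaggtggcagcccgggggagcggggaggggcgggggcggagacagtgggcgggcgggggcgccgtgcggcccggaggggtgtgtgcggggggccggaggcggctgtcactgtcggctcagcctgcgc
Ddit3 promoter (lost), chr10:127290543-127290842, plus strand: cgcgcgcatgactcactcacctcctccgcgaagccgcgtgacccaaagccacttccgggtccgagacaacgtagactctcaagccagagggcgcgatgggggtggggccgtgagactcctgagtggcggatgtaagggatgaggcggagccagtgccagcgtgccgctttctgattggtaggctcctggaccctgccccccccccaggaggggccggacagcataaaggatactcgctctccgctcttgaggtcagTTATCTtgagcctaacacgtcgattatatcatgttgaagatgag
Rap1gap2 intron (lost), chr11:74572089-74572388, plus strand: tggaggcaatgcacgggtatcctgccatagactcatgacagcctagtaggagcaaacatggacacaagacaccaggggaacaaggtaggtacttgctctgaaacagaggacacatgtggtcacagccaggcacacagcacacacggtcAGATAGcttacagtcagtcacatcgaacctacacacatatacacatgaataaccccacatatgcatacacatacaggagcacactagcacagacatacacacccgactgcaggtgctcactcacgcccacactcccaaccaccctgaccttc
Mtmr9 upstream (lost), chr14:63564733-63565032, plus strand: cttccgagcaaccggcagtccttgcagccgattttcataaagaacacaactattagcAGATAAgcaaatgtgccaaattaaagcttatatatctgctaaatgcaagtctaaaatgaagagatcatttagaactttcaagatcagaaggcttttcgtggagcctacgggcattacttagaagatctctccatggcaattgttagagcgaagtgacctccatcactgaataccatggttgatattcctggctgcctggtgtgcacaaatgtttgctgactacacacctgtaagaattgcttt

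The promoters of Ache and Ddit3 held 30 and 22 CpG dinucleotides in these 300 bases, and the Steap3 promoter shown held 4. The Rap1gap2 and Mtmr9 sequences held 5 and 6. A second RefSeq promoter of Steap3 in the same region (chr1:120270221-120270520) held 5 CpG dinucleotides and no GATA motif. Among sequences searched but not shown, the gained Padi3 promoter and Col18a1 intron held no GATA motif. The lost Gtf2b and Zbtb16 regions held 1 each. Over all members the median count in the central 300 bases was 6 in gained regions, 5 in lost regions, and 15 in regions of all 4 lists. A GATA motif was present in 35.7% of the gained and 45.0% of the lost sequences, against 24.7% of the constant ones and 29.8% of the 32851 RefSeq mouse promoters of the same length. Among regions without a coding TSS the shares were 39.4% of 104 gained, 47.4% of 152 lost, and 37.6% of 3010 constant regions. Over all 5324 such regions the share was 40.7%. The median GC content was 50% in gained, 45.8% in lost, 50% in constant, and 49% in all of these regions. A match describes the letters and says nothing about binding.

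The 4 lists were close in size. The 12 h lists held 13239 and 13067 peaks and the 24 h lists 12925 and 13071. Their peaks covered 30.5 and 29.9 Mb of the genome after 12 h, then 30.5 and 30.8 Mb. By shared bases, the lists of one time resembled each other (Jaccard index 0.860 at 12 h and 0.862 at 24 h) slightly more than lists of different times (0.848 to 0.853). From 67.6% to 69.1% of the peaks of a list held a coding TSS. The lists carry no read counts, so the depth is unknown, and a region without a peak is not shown to lack the mark. In these bulk samples fewer cells with a mark and less of the mark per cell cannot be told apart. With 2 lists a side the smallest p that an exact permutation test can give is 0.333. Gains and losses were therefore counted without a test, and covered length was tested with limma, sharing 1 estimate of the spread over all 10 H3K4me3 lists. The limma p of a gained or lost region comes from the lists that placed it in its class, so it describes how far the lists differ and is no separate evidence.

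Most of the gained and lost regions were not new to the time course. Of the 115 gained regions, 61 and 69 held a peak in the 0 h lists, 71 and 34 in the 2 h lists, 53 and 60 in the 6 h lists, and by definition 0 in the 12 h lists. Peaks were found in all 6 earlier lists (0 to 6 h) for 12 gained regions, in some of them for 90, and in none for 13. Of the 169 lost regions, 122 and 134 held a peak at 0 h, 133 and 99 did at 2 h, and 111 and 119 did at 6 h. For 59 lost regions all 6 earlier lists had a peak, and for 4 none had. The 2 h replicates differed most from each other in both classes. Constant regions held a peak in 99.0% to 99.6% of cases in each earlier list.

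The acetylation of the same regions, which the rule did not use, moved little. The 12 h lists had H3K27ac peaks in 54 and 55 of the gained regions, and the 24 h lists in 55 and 54. For lost regions these numbers were 96 in both 12 h lists, then 87 and 84. No gained region gained H3K27ac by the same rule, against 0.548% of all regions, and 3 lost regions (1.78%) lost it, against 0.860% of all. In the limma fit of H3K27ac covered length, 32 of 11894 regions were longer at 24 h (0.269%) and 54 shorter (0.454%). None of the 56 gained and 97 lost regions that could be tested was among them. By limma 2 of the 56 and 5 of the 97 had an unadjusted p under 0.05, against 736 of all 11894. CTCF at 24 h lay in 23.5% of gained, 22.5% of lost, and 39.8% of constant regions, from a single list.

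**Figure D1:**
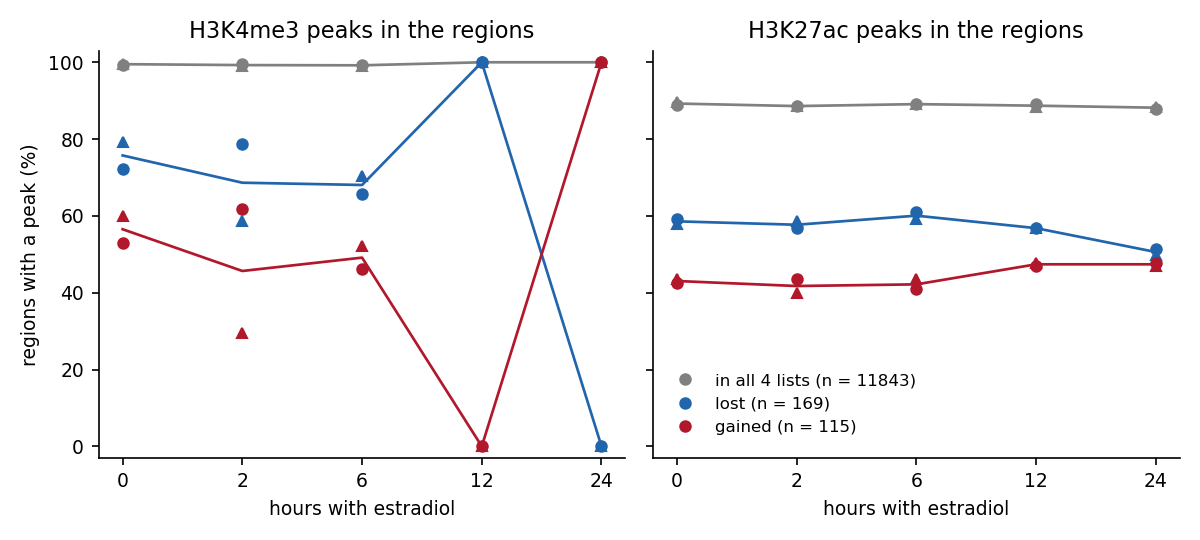
Percentage of the gained (red, n = 115), lost (blue, n = 169), and constant (grey, n = 11843) regions with a peak in each list, by hours of β-estradiol on an evenly spaced axis, for H3K4me3 (left) and H3K27ac (right). Circles are replicate 1, triangles replicate 2, and lines join the means. Gained and lost H3K4me3 regions held peaks in 29.6% to 79.3% of cases before 12 h, whereas their H3K27ac share lay between 40.0% and 60.9% at all times.

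Among the regions with a coding TSS, 11 were gained and 17 lost. Of the lost ones, the region with the highest-ranked peaks was at Ache (chr5:137286716-137292473), which encodes acetylcholinesterase, an enzyme of the red cell surface. Its peak covered 5643 and 5509 bp at 12 h, between 5099 and 5357 bp in the 6 earlier lists, and was missing from both 24 h lists. The log2 difference in covered length (24 h minus 12 h, on log2 of bp plus 200) was -4.85 (SE 0.04, limma adjusted p = 2.08e-09). Against a list at 0 the size of such a difference is set by the constant of 200 bp.

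Zfpm1, which encodes FOG1, the principal cofactor of GATA1, lost a region of 7924 bp over its start (chr8:122280504-122288427). The covered length was 7657 and 7924 bp at 12 h and 0 in both lists at 24 h, and 6316 to 7300 bp in the earlier lists (log2 difference -5.32 ± 0.06 SE, limma adjusted p = 5.62e-09). Ufsp1, which encodes a UFM1-specific protease, lies next to Ache, and its region (chr5:137292561-137295800) went from 3183 and 3198 bp to 0 (limma adjusted p = 5.79e-08). The regions of Ache and Ufsp1 are neighbours on the chromosome, so they are not independent cases.

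Tpsab1, which encodes a tryptase of mast cell granules, had a peak in every list up to 12 h and in none at 24 h. Its region (chr17:25343848-25345691) covered 1844 and 1439 bp at 12 h and 1377 to 1844 bp before (log2 difference -3.19 ± 0.17 SE, limma adjusted p = 2.38e-04). With the spread from the 4 lists at 12 and 24 h alone, the limma adjusted p was 0.126. H3K27ac covered 1844 bp in both 12 h lists and 0 in both 24 h lists there, but earlier H3K27ac lists ranged from 0 to 1826 bp and the H3K27ac difference did not pass the test (limma adjusted p = 0.861). Tpsab1 is 1 of the 3 lost regions that also lost H3K27ac by the counting rule.

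Ddit3, which encodes the stress-induced transcription factor CHOP, had called peaks only at 12 h, which does not show that the mark was absent at other times. A region of 5210 bp over its start (chr10:127290533-127295742) held peaks of 4929 and 5210 bp in the 12 h lists and 0 in the other 8 lists (limma adjusted p = 0.00387, and up to 0.0600 without 1 of the 12 h lists). Mtus1, which encodes a microtubule-associated protein, went from 892 and 881 bp to 0 (limma adjusted p = 0.00275, and 0.292 with the 4 lists alone). Rrad, encoding a Ras-related GTPase, went from 361 and 933 bp to 0 and Gm13283 from 933 and 818 bp to 0, without passing the test (limma adjusted p = 0.130 and 0.323).

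The 8 named gained promoters did not pass the test, and all 8 held a peak in at least 1 earlier list. By limma 7 of them had an unadjusted p under 0.05, against 1189 of all 13268 regions fitted. They were chosen for peaks in both 24 h lists and neither 12 h list, so their low p is no support. Steap3 encodes the ferrireductase of erythroid transferrin endosomes. Its region (chr1:120269012-120271459) covered 0 bp in both 12 h lists and 1459 and 2448 bp at 24 h, and 1 of the 6 earlier lists, at 0 h, held 1168 bp (log2 difference 3.39 ± 0.86 SE, limma adjusted p = 0.259). Slc38a5 encodes a glutamine transporter. Its region (chrX:8270966-8272446) covered 0 bp at 12 h and 1296 and 1021 bp at 24 h, with 585 bp in 1 list at 2 h and 571 bp in 1 list at 6 h (limma adjusted p = 0.395). H3K27ac at Slc38a5 covered 0 and 707 bp at 12 h and 1480 and 1481 bp at 24 h. The H3K27ac difference did not pass the test either (limma adjusted p = 0.652).

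Padi3, a peptidylarginine deiminase gene, covered 2356 and 2157 bp at 24 h, 0 at 12 h, and 894 bp in 1 list at 2 h (limma adjusted p = 0.149). Zbtb12, encoding a BTB zinc finger protein, covered 1973 and 1921 bp at 24 h and 2018 bp in 1 list at 6 h. Gfpt2, Klf8, Exoc3l4, and Arntl2 covered 579 to 884 bp at 24 h and had peaks in 2 to 5 of the 6 earlier lists. Gfpt2 encodes an enzyme of the hexosamine pathway, and Klf8 and Arntl2 encode transcription factors. The limma adjusted p of these 5 genes lay between 0.304 and 0.579.

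**Figure D2:**
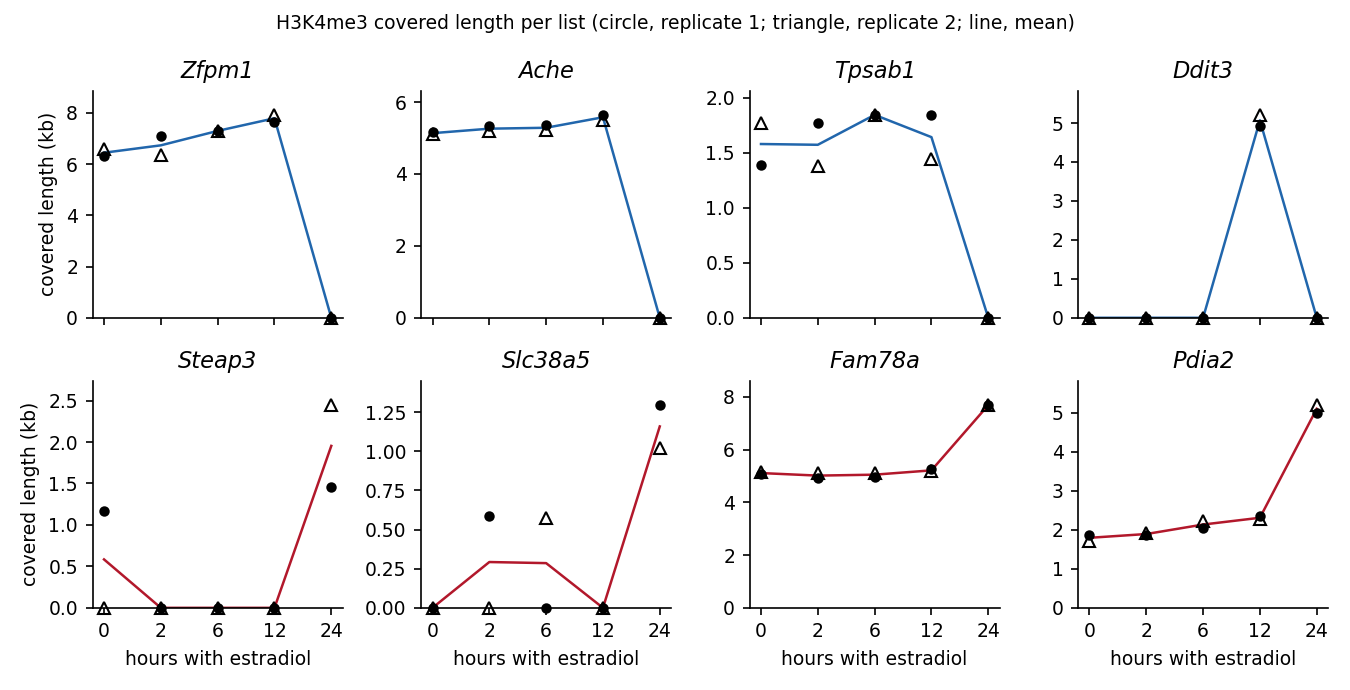
H3K4me3 covered length in kb per list against hours of β-estradiol, evenly spaced, for 4 lost regions, 2 gained regions (Steap3, Slc38a5), and 2 lengthened ones (Fam78a, Pdia2). Filled circles are replicate 1, open triangles replicate 2, and lines join the means. Zfpm1, Ache, and Tpsab1 were covered in every list up to 12 h and at 0 at 24 h, and Ddit3 was covered at 12 h alone.

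Away from gene starts, a few intronic and intergenic losses held a peak in all 6 earlier lists. Zbtb16 encodes the transcription factor PLZF. A region in a Zbtb16 intron (chr9:48819546-48821252) was covered over its full 1707 bp in each of the 6 earlier lists. Earlier peaks were counted only inside the region, so 1707 bp was the most they could cover. The region covered 1392 and 1549 bp at 12 h and 0 at 24 h (limma adjusted p = 1.49e-05, and 0.139 with the 4 lists alone). An intron of Nck2, an SH2/SH3 adaptor gene, went from 1343 and 1333 bp to 0 (limma adjusted p = 3.06e-05, and 0.162 with the 4 lists alone). An intron of Rap1gap2, which encodes a Rap1 GTPase-activating protein, went from 1382 and 1592 bp to 0 (limma adjusted p = 5.67e-05, and 0.139 with the 4 lists alone). H3K27ac there covered 1625 bp in both 12 h lists and 0 at 24 h, but only 2 of the 6 earlier H3K27ac lists held any (limma adjusted p = 0.861).

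Intergenic losses lay 6593 bp from Gtf2b, the TFIIB gene (865 and 1263 bp to 0, limma adjusted p = 0.00160) and 20394 bp from Mtmr9, a myotubularin-related gene (746 and 1002 bp to 0, limma adjusted p = 0.00188). A loss in an intron of 4930558K02Rik, 17494 bp from Pigc, a gene of GPI anchor synthesis, went from 996 and 1008 bp to 0 (limma adjusted p = 0.00107). An intron of Zfp217, encoding a zinc finger protein, had no peak at 0 h, 4819 to 4979 bp at 2 and 6 h, 5008 and 5021 bp at 12 h, and 0 at 24 h (limma adjusted p = 1.09e-07). With the 4 lists alone the limma adjusted p was 0.279 near Gtf2b, 0.309 near Mtmr9, and 0.277 near Pigc. With equal numbers of peaks per list it was 0.309 at Zfp217. At the Gtf2b region H3K27ac remained in both 24 h lists, with 1124 and 1243 bp.

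Among intronic gains, Pde4d, a cAMP phosphodiesterase gene, held a region that passed the test (chr13:109821833-109822850). It covered 995 and 951 bp at 24 h and 665 to 984 bp in all 6 earlier lists, with 0 at 12 h (limma adjusted p = 0.00198). The peak was therefore missing at 12 h alone, which does not show a lower level of the mark. The call was lost with the 4 lists alone and with equal numbers of peaks per list. H3K27ac covered the region completely in all 10 lists.

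Gains that did not pass the test included an intron of Col18a1, a collagen gene (2056 and 1971 bp at 24 h, limma adjusted p = 0.388), and a UTR of Mthfd1 near Akap5 (1119 and 1179 bp, limma adjusted p = 0.443). A region in BC017158 covered 914 and 767 bp at 24 h and 0 in the other 8 lists (limma adjusted p = 0.388). It was 1 of the 13 gained regions with no peak in any earlier list.

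Covered length was next compared over the 13268 regions with a peak in at least 2 of the 4 lists, to include regions that grew or shrank without appearing or vanishing. In total, 38 regions were longer at 24 h (0.286%) and 72 were shorter (0.543%) at a Benjamini-Hochberg adjusted p under 0.05 by limma. The median log2 difference of all regions was 0.02. With the spread taken from the 4 lists alone, 3 and 7 passed. Leaving out either 12 h list gave 71 and 70 longer and 51 and 59 shorter regions, and leaving out either 24 h list gave 27 and 30 longer and 152 and 179 shorter. Of the 38 longer regions, 14 were gained and 24 were in all 4 lists, and 20 held a coding TSS. Of the 72 shorter regions, 60 were lost and 12 were in all 4 lists, and 12 held a coding TSS. The gained and lost regions were chosen with these same lists, so their share among the calls is a description.

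At Fam78a, Pdia2, Rbm12b2, and a region within Cit, both 24 h lists lay above all 8 earlier lists. At Fam78a (chr2:32077752-32085521) the covered length was 4932 to 5252 bp in all 8 lists to 12 h and 7681 and 7700 bp at 24 h (limma adjusted p = 0.00166, log2 difference 0.54 ± 0.04 SE). At Pdia2 (chr17:26197035-26202268), which encodes a disulfide isomerase, it was 1712 to 2344 bp and then 5000 and 5198 bp (log2 difference 1.08 ± 0.06 SE, limma adjusted p = 2.47e-04). Within Cit (chr5:115944908-115948765), which encodes the cytokinesis kinase citron, it was 875 to 1552 bp and then 3775 and 3643 bp (log2 difference 1.19 ± 0.10 SE, limma adjusted p = 0.00198).

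At the Nadk2 and Rbm12b2 regions, lists before 12 h had also been longer than those at 12 h. At Nadk2, encoding the mitochondrial NAD kinase, the 12 h lists (5252 and 5133 bp) resembled 0 h, and the 24 h lists (7212 and 7282 bp) resembled 2 and 6 h (limma adjusted p = 0.00862). The region shared by Rbm12b2 and Tmem67, the latter a ciliary membrane protein gene, covered 2994 and 2661 bp at 12 h against 4338 to 5184 bp before and 5553 and 5751 bp after (limma adjusted p = 0.00546). H3K27ac was tested in 25 of the 38 longer and 54 of the 72 shorter regions. The single H3K27ac call among them went against the H3K4me3 direction.

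**Figure D3:**
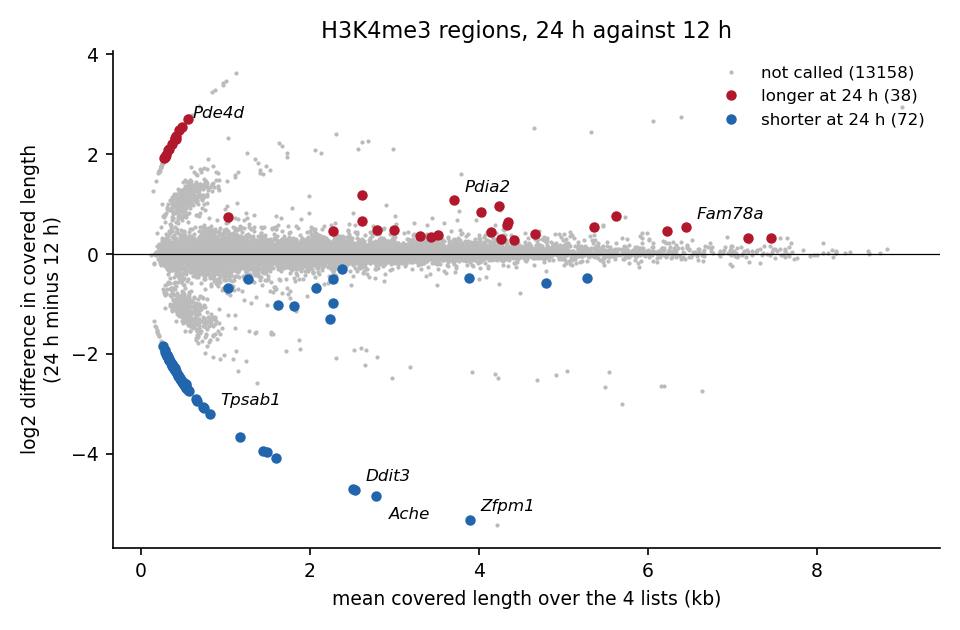
Log2 difference in H3K4me3 covered length (24 h minus 12 h, log2 of bp plus 200) of each of the 13268 regions against its mean covered length over the 4 lists in kb. Red points (38) were longer and blue points (72) shorter at 24 h by limma. Most blue points fall on the lower arc of regions with 0 bp at 24 h, while red points away from the upper arc are long regions such as Fam78a and Pdia2.

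Presence in a list depended on peak length at both ends. No peak of any H3K4me3 list was longer than 9200 bp. Among the 14424 regions, the share without a peak in at least 1 of the 4 lists was 69.2% where the longest peak was 0.5 to 1 kb and 0.788% at 2 to 3 kb. It was 6.82% at 7 to 8 kb and 25.5% among the 55 regions of 8 kb or more. The peak score is 10 times the negative log10 p-value from the peak caller. The median of the highest score per region was 1367 at 3 to 4 kb and 268 at 8 kb or more. Regions without any H3K27ac peak in the 10 lists made up 1.38% of those at 2 to 3 kb and 50.9% of those at 8 kb or more.

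Of the named losses, Zfpm1, Ache, Ddit3, and Zfp217 had peaks of 5 kb or longer, and all 4 held no H3K27ac peak in any of the 10 lists. The fifth lost region of that length was at Cpox, the coproporphyrinogen oxidase gene of heme synthesis, singled out after its values were seen. It covered 8791 and 8064 bp at 12 h and 0 at 24 h, but also 0 in 1 list at 0 h and 1 list at 2 h (limma adjusted p = 0.488). Among the 24 lengthened regions in all 4 lists, both 24 h scores were below both 12 h scores in 19, compared with 1778 of all 11843 constant regions. At Fam78a the scores were 979 and 979 at 12 h and 242 and 249 at 24 h. A filter at the median score of the 4 lists therefore removed the 24 h peaks of Fam78a and Nadk2 and turned their directions (log2 differences -4.76 and -4.75). The part of peak length in these differences was not tested. Without the regions that had a peak of 5 kb or longer, 25 were longer and 66 shorter by limma.

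**Figure D4:**
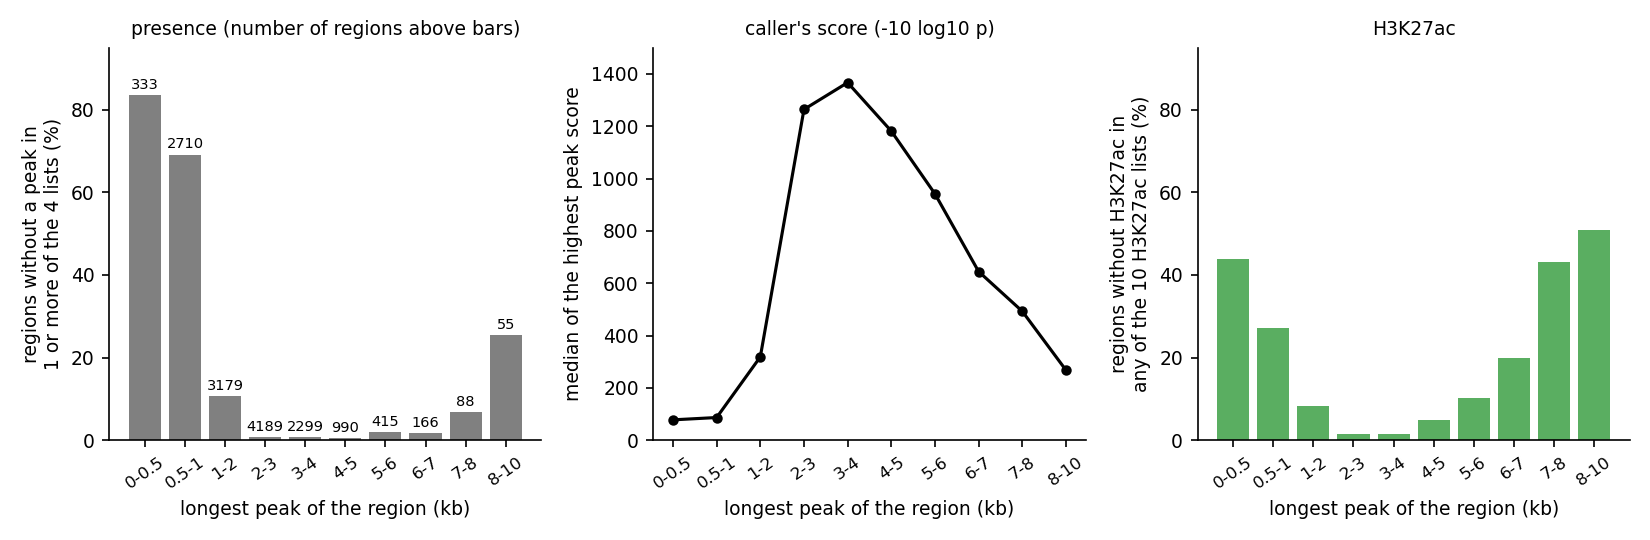
The 14424 regions by the length of their longest peak in kb. Left, the percentage without a peak in 1 or more of the 4 lists, with the number of regions above each bar. Middle, the median of the highest caller's score. Right, the percentage without H3K27ac in any of the 10 lists. Regions of 2 to 5 kb were missing least often, and those of 8 kb or more were missing from a list in 25.5% of cases.

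Promoters were compared by the covered length within 2 kb of 1 TSS per protein-coding gene. Of 9836 promoters tested, 5 were longer at 24 h (0.0508%) and 13 shorter (0.132%) by limma. The longer ones, named here because they were called, were Tmem67, Rbm12b2, Pdia2, Mylpf, and Tbc1d10b. The windows of Tmem67 and Rbm12b2 overlap, and so do those of Mylpf and Tbc1d10b. The members of each pair are therefore not independent cases. The window of Mylpf, a muscle myosin light chain gene, held 607 and 609 bp at 24 h and 0 in the 0 h and 12 h lists. It held 488 to 554 bp in the 4 lists at 2 and 6 h (limma adjusted p = 0.0279). These lengths fit the far end of the peak in the Tbc1d10b window, which stops short of the Mylpf start. They do not show a mark at that start. The 13 shorter ones were Zfpm1, Ache, Ufsp1, Mid1ip1, Tpsab1, Fkbp5, Mtus1, Ceacam3, 4930451I11Rik, Ddit3, Nab2, Zfp937, and Tespa1. Of these, 10 were at 0 in both 24 h lists. Fkbp5, which encodes a co-chaperone of steroid receptors, went from 1091 and 1059 bp to 0 (limma adjusted p = 0.00253).

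Leaving out 1 of the 4 lists ended the calls of Mylpf (limma adjusted p up to 0.132), Tbc1d10b (0.0732), Tespa1 (0.115), Ddit3 (0.110), Nab2 (0.0800), Zfp937 (0.0800), 4930451I11Rik (0.0679), and Ceacam3 (0.0576). Leaving out a 12 h list gave 13 and 12 longer and 7 shorter promoters, and leaving out a 24 h list 5 and 3 longer and 31 and 30 shorter.

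Partial shortening was seen at Mid1ip1, Nab2, and Tespa1. Mid1ip1, a regulator of lipogenesis, filled the 4001 bp window in every list up to 12 h and covered 3387 and 3318 bp at 24 h (limma adjusted p = 1.54e-04). Nab2, a corepressor of EGR factors, covered 3976 and 4001 bp at 12 h and 3360 and 3521 bp at 24 h (limma adjusted p = 0.0102). Tespa1, one of the promoters targeted in the study, covered 2463 and 2686 bp at 12 h and 1386 and 1543 bp at 24 h (limma adjusted p = 0.0170). H3K27ac at the Tespa1 promoter covered 4001 and 3521 bp at 12 h and 3135 and 2800 bp at 24 h.

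The erythroid gene lists were read against all promoters tested, of which both 24 h lists lay above both 12 h lists in 20.3% and below in 14.2%, with a median log2 difference of 0.01. An unadjusted p under 0.05 was found for 550 of the 9836. All 12 heme synthesis promoters were tested, and 6 lay above and 1 below, with none called by limma and 3 at an unadjusted p under 0.05 (median 0.07). Alas2, which encodes the first enzyme of erythroid heme synthesis, covered 1658 and 1813 bp at 12 h and 2113 and 2215 bp at 24 h (limma adjusted p = 1). Its H3K27ac covered between 0 and 822 bp in the 6 lists before 12 h, 2399 and 2733 bp at 12 h, and 2635 and 2539 bp at 24 h.

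Of the 4 globin promoters tested, 3 lay above and 0 below, with none called by limma and 1 at an unadjusted p under 0.05 (median 0.17). The largest difference was at Hba-a2, with 1598 and 1724 bp at 12 h and 2104 and 2802 bp at 24 h (limma adjusted p = 0.559). H3K27ac at Hba-a2 covered 2240 and 2713 bp at 12 h and 3598 and 3317 bp at 24 h. The adult alpha- and beta-globin genes are near-identical pairs, and the lists were made from uniquely mapped reads, so their extents are uncertain. Of 14 red cell membrane promoters, 4 lay above and 0 below (median 0.04), with none called by limma and 1 at an unadjusted p under 0.05. Epb41, encoding protein 4.1 of the membrane skeleton, covered 1745 and 1327 bp at 12 h and 1908 and 2544 bp at 24 h (limma adjusted p = 0.852). Rhd, a blood group gene, covered 2267 and 2378 bp and then 2604 and 2664 bp (limma adjusted p = 0.951).

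Of 11 iron promoters, 2 lay above and 1 below (median 0.02), with none called by limma and 1 at an unadjusted p under 0.05. Steap3 had the largest difference, and Tfrc, the transferrin receptor gene, covered 2813 and 2820 bp at 12 h and 2994 and 2916 bp at 24 h. Of 13 erythroid transcription factor promoters, 1 lay above and 2 below, and Zfpm1 was called shorter. Klf1 covered 3337 and 3101 bp at 12 h and 3295 and 3203 bp at 24 h, and Mafk, a small MAF subunit of the NF-E2 factor, 2534 and 2719 bp and 2669 and 2578 bp. Mafg, another small MAF gene, covered 3011 and 2942 bp and then 3041 and 3134 bp. The Gata1 window held no peak in any list. Ldb1 and Gfi1b, singled out after their values were seen, each had no peak in 1 of the 24 h lists and 2858 to 3623 bp in the other 3 of the 4 lists.

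Of the stem and progenitor factors, 11 of 20 were tested, 2 lay above and 2 below, and limma called none, with 0 at an unadjusted p under 0.05. Kit, the SCF receptor gene, covered 2864 and 0 bp at 12 h and 3048 and 2906 bp at 24 h. Meis1, a homeobox gene of progenitors, covered 1558 and 1687 bp at 12 h and 1254 and 1475 bp at 24 h. The Gata2 window held no peak in any list. The study reports a high level of GATA2 in undifferentiated cells of this line, so the missing peak does not show an unmarked promoter. Why it is missing was not tested. Among 17 late maturation promoters, 2 lay above and 3 below, with none called by limma and 0 at an unadjusted p under 0.05. Trim10 covered 1962 and 1920 bp at 12 h and 2229 and 2013 bp at 24 h, and Tent5c, encoding a poly(A) polymerase, 3321 and 3364 bp and then 3166 and 0 bp. Of 15 promoters of H3K4 methyltransferase and demethylase genes, 3 lay above and 2 below, with none called by limma and 1 at an unadjusted p under 0.05. Kdm5b, a demethylase gene, covered 2428 and 2358 bp at 12 h and 2673 and 2591 bp at 24 h, and Kdm5c 2953 and 2993 bp and then 2814 and 2302 bp.

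Of 5 mast cell marker promoters tested, 0 lay above and 3 below, and Tpsab1 was called shorter by limma, with 2 at an unadjusted p under 0.05 (median log2 difference -0.62). Summed over the 14 genes, the covered length was 11.8 and 8.24 kb at 12 h and 4.10 and 4.69 kb at 24 h, and 8 of the 14 promoter windows held no peak in any of the 4 lists. Il1rl1 was 1 of these 8, although a region over another of its starts had peaks in all 4 lists. The sums leave that region out. Ms4a2, which encodes the beta chain of the high-affinity IgE receptor, covered 2409 and 2364 bp at 12 h and 0 and 739 bp at 24 h (limma adjusted p = 0.559). A further 2 regions, singled out after their values were seen, differed in direction. The region at Il1rl1, the IL-33 receptor gene, shortened from 5373 and 6222 bp to 3847 and 3740 bp (limma adjusted p = 0.0113). That at Il9r, the IL-9 receptor gene, lengthened from 3203 and 2476 bp to 5309 and 5092 bp (limma adjusted p = 0.0107), so the mast cell genes did not all move one way.

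Of the 42 promoters targeted in the study, 41 were matched and 32 tested. Of these, 7 lay above and 6 below (median 0.02), and Tespa1 was called shorter by limma, with 6 at an unadjusted p under 0.05. The study chose this list on these cells, so it is not independent evidence of a direction. Btn1a1 covered 2753 and 2617 bp at 12 h and 2748 and 2900 bp at 24 h, and Tmem184a, the neighbour of Mafk, 1724 and 1780 bp and then 1988 and 2363 bp. The 3 megakaryocyte promoters tested overlapped between the times, and limma called none, with 0 at an unadjusted p under 0.05. The 16 macrophage, granulocyte, lymphoid, and stromal markers held no peak in any of the 4 lists, while 14 of the 16 red cell membrane genes held one in at least 2 lists, as the erythroid label implies.

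**Figure D5:**
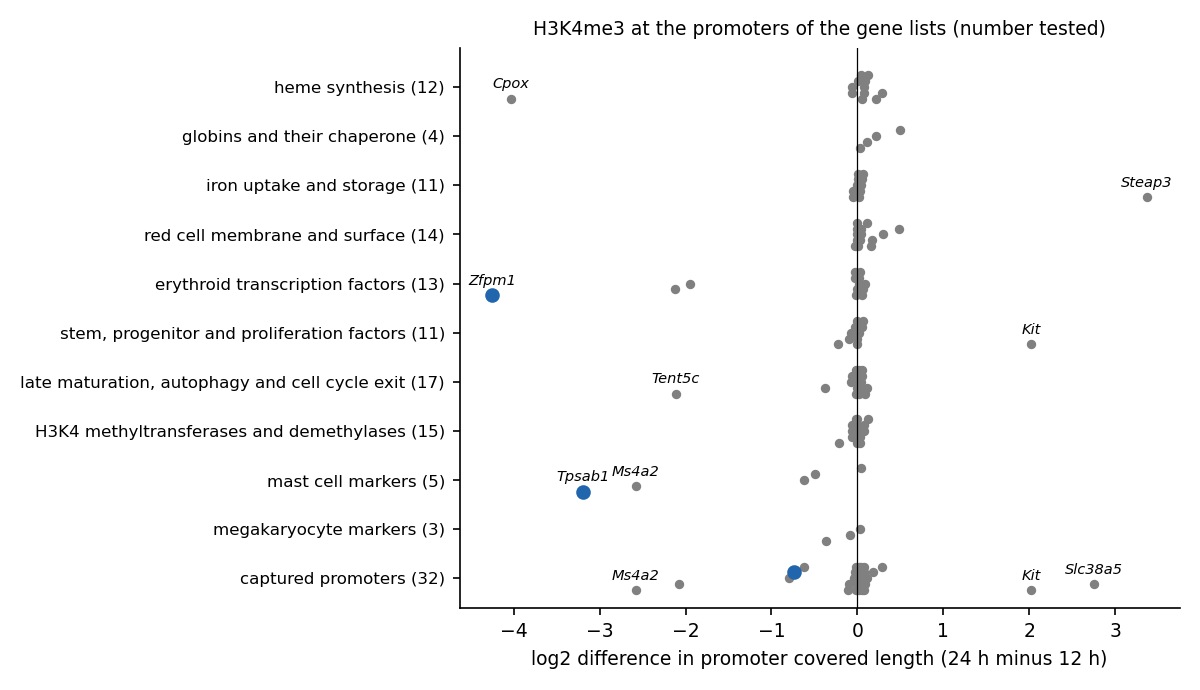
Log2 difference in H3K4me3 covered length at each tested promoter (24 h minus 12 h, log2 of bp plus 200), by gene list, with the number tested in parentheses. Blue points passed the limma test (Zfpm1, Tpsab1, and Tespa1) and grey points did not. Most promoters lie close to 0, and the lowest values are those of Zfpm1 (-4.25), Cpox (-4.03), and Tpsab1 (-3.19).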

How the data were processed

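H3K4me3 ChIP-seq peaks in G1ER cells were compared between 24 h and 12 h of β-estradiol. According to the study's methods, the authors mapped reads to mm10 by Bowtie2 (defaults), retained those with a unique position, and ran MACS with --nomodel on each library. The MACS version, control, and threshold are not given in the sources used here. The deposited files hold peak positions and a score. By the peak names and its minimum of 50.0 the score is the negative log10 p-value of the peak caller times 10, and it served here for ranks and filters alone. They hold no counts, so the depth and its precision are unknown. The labels name a human build, but 67.6% or more of the peaks held a mouse TSS in GRCm38, against 7.14% or less after moving them by 50 kb. The labels and the methods give different catalogue numbers for the H3K4me3 antibody.

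Peaks of the 4 lists that touched were merged, and overlap meant at least 1 bp. Peaks of other lists counted only inside these bounds, so earlier lists that fill a region show no spread there. Covered length per region, per promoter window (2 kb either side of 1 TSS per protein-coding gene, GENCODE M21), and for H3K27ac in the same regions was fitted in limma by lmFit and eBayes (trend on) as log2(bp + 200), with a mean per time point over the 10 lists of a mark, peaks in at least 2 of the 4 lists, and Benjamini-Hochberg adjusted p under 0.05. This step was first tested on simulated data with known changes. Because peaks are present or absent, the noise departs from the normal noise that limma assumes. The labels do not say whether replicates came from separate cultures, and the study states independent experiments.

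Named were, per direction, the 8 gained or lost regions with a coding TSS and the 4 without one whose weaker peak ranked highest, the 6 regions with the smallest adjusted p, 2 non-overlapping promoters per list with the largest difference, and 9 landmark promoters. Regions took the name of the nearest coding TSS within 50 kb or of the gene that holds them, and 1 region that the rule named is not reported here. The members, gene lists, and rules were chosen with earlier results of these data known. Of the list symbols, Ahsp and Hbb-b1 were not matched. Alternatives were other pseudocounts, filters, merging distances, windows, scalings, minimum overlaps, a replicate block, the 4 lists alone, and leaving out each list. Python 3.11.15 (numpy 2.4.6, pandas 2.3.3, scipy 1.17.1, matplotlib 3.10.9) and limma 3.58.1 under R 4.3.3 were the tools.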

Additional observations from a re-analysis of the deposited data

How the results depend on the processing

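Presence of a peak is a threshold measure, and both counts moved with peak score. With higher-scoring peaks alone, those that reach 837, the median score of the 4 lists, 71 regions were gained and 57 lost. Leaving out a list, and so asking for a single list at that time, gave 258 to 407 gained and 345 to 550 lost regions, and each of the 4 lists moved both counts by over 1.5 times. With equal numbers of peaks, merging within 500 bp, autosomes and X, 25% coverage, or the longest peak under 5 kb, both counts stayed within 1.5 times of the values in the report.

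For covered length per region, the numbers longer and shorter were 3 and 7 with the 4 lists at 12 and 24 h alone, 6 and 5 with a peak in at least 3 of the 4 lists, and 24 and 24 with higher-scoring peaks. With the longest peak under 5 kb, an alternative chosen after seeing the data, 25 were longer. Without 1 list, 27 to 71 were longer (over 1.5 times more without either 12 h list) and 51 to 179 shorter (over 1.5 times more without either 24 h list). The 60 lost and 14 gained regions among the calls have peaks in 2 of the 4 lists by definition, so the filter at 3 lists removes them.

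For promoters, 24 were longer and 30 shorter with higher-scoring peaks, 3 longer with a window of 1 kb, 13 longer with one of 5 kb, 6 shorter with the 4 lists alone, 6 shorter without the filter, and 0 longer and 7 shorter with the longest peak under 5 kb. Without 1 list, 3 to 13 were longer and 7 to 31 shorter. In the limma fit with 0 longer promoters, 448 promoters in either direction had an unadjusted p under 0.05. For H3K27ac, 86 were longer and 106 shorter with the 4 lists alone and 82 shorter with higher-scoring peaks. Without 1 list, 32 to 85 were longer, the highest without 12 h replicate 1, and 45 to 265 shorter, the highest without 24 h replicate 1.

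The replicate numbers did not pair the lists, since the deviations of same-numbered lists correlated between -0.0951 and 0.0550. With the replicate block, 21 regions were longer and 61 shorter, and 4 promoters longer and 11 shorter.

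Of the 38 regions and promoters named and called, 9 kept their call in every alternative run. Over all 38 the call was lost in 79 of 485 values, 24 of them with the 4 lists alone and 24 without 1 list. Directions reversed with higher-scoring peaks for Fam78a (-4.76), Nadk2 (-4.75), and Tbc1d10b (-3.78). The 24 h scores at Fam78a and Nadk2 lay under the limit and the 12 h scores above it. The same filter reversed Epb41 (-1.41), Kdm5c (3.78), and Mafk (0.0115), which were not called. Mafk also reversed with a window of 5 kb (0.17) and without 1 list (range -0.0482 to 0.0463), Klf1 without 1 list (range -0.0365 to 0.0631), Alas2 and Trim10 with a window of 1 kb (-0.00138 and -0.0247), and Rhd with one of 5 kb (-0.0210). The cause of the other reversals was not tested.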
